A study of Mus musculus with 6 samples.

Results

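The genes described here are those of respiratory complex I, taken as every gene of the deposited table whose symbol starts with Nduf, without the 4 rows named as pseudogenes. They were 48 of 24559 genes: 40 structural subunits and 8 assembly factors, the latter with symbols that start with Ndufaf. RNA sequencing measured them in CD8+ T cells, which are cytotoxic lymphocytes, from the spleens of C57 BL/6 wild-type mice, described in the labels as primary culture cells. One group of 3 libraries came from cells given L-4F, a synthetic peptide mimetic of apolipoprotein A1 (the chief HDL protein), and the other 3 came from cells given ABCT buffer. The study asked how apolipoprotein A1 affects the immune functions of these cells. Dose, time, age of the mice and any stimulation in culture are not given in the labels. Nothing in the labels tells whether the 3 libraries of a group are separate animals or cultures, and p-values therefore reflect the scatter among these libraries, which may be technical.

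Complex I, NADH:ubiquinone oxidoreductase, is the largest complex of the mitochondrial respiratory chain. It takes electrons from NADH, passes them through a flavin and a chain of iron-sulphur clusters to ubiquinone, and pumps protons across the inner membrane. The NADH-oxidising N module and the ubiquinone-reducing Q module form a peripheral arm in the matrix, and the membrane arm has a proximal and a distal part. Core subunits, partly encoded by mitochondrial DNA, carry the chemistry, supernumerary subunits surround them, and assembly factors help to build the complex without staying in it. Activated CD8+ T cells raise both glycolysis and respiration, and complex I supplies much of the NADH-driven respiration.

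Sequencing gave 25073292 to 31332003 reads per library, so that a gene listed at 0 could still have reached 0.0957 to 0.120 CPM (3 reads, counting error only). Of the 48 genes, 46 passed the filter of at least 10 normalized reads in at least 3 libraries, 38 structural subunits and 8 assembly factors. The 2 genes below the filter were Ndufa4l2, a paralog of Ndufa4, with 3.52, 4.72 and 4.12 in buffer and 0, 1.99 and 4.16 with L-4F, and Ndufs6b, which RefSeq lists as a pseudogene, with 4.41, 0 and 0 in buffer and 0, 0 and 0 with L-4F. Markers of the labelled cell type were abundant: 6 CD8 T cell genes summed to 74751 to 75289 normalized reads in buffer and 85134 to 87597 with L-4F, and 5 of the 6 were called higher. Of the markers of other cells, CD4 T cell genes summed to 174.5 to 184.6 and 178.0 to 229.5 (1 of 2 called lower), and myeloid genes to 1444 to 1683 and 1509 to 1572 (0 of 5 called). B cell genes summed to 220.7 to 246.7 in buffer and 305.9 to 335.8 with L-4F (1 of 4 called higher), NK cell genes to 509.4 to 561.3 and 607.3 to 681.4 (2 of 4), and erythroid genes to 132.0 to 168.9 and 211.6 to 225.8 (2 of 3). None of these markers was at 0 in all 6 libraries, and the part of those cells in the results below was not tested. In bulk RNA, a change in the number of cells of a type and a change of RNA per cell cannot be told apart.

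Most complex I genes were moderately higher with L-4F, and none was called lower. Of 38 structural subunits tested, 34 were called higher, with a median log2 fold change of 0.30 over all 38 (range 0.04 to 0.44). Of 8 assembly factors, 5 were called higher, with a median of 0.25 (range 0.03 to 0.56). A gene was called at a limma adjusted p under 0.05, adjusted over all 14922 genes tested, of which 18.4% were called higher and 19.7% lower, with a median of -0.00 (2747 and 2947 genes). Centring each library on its median gave 2161 higher (14.5%) and 3630 lower over all genes, and 32 structural subunits and 4 assembly factors higher. In 34 structural subunits and 5 assembly factors every L-4F library lay above every buffer library, as it did for 23.2% of all genes tested. The p-values in the authors' deposited table, adjusted over all genes of that table, called 34 structural subunits and 4 assembly factors higher, beside 16.7% of the genes tested here. The same 34 structural subunits and 4 of the same 5 assembly factors were in both sets, and Ndufaf7 was called by limma only. The difference between structural subunits and assembly factors was not tested, and their ranges overlapped. The scale of all these differences is log2(normalized reads + 1), on which 0.30 is a level 1.23 times as high.

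**Figure D1:**
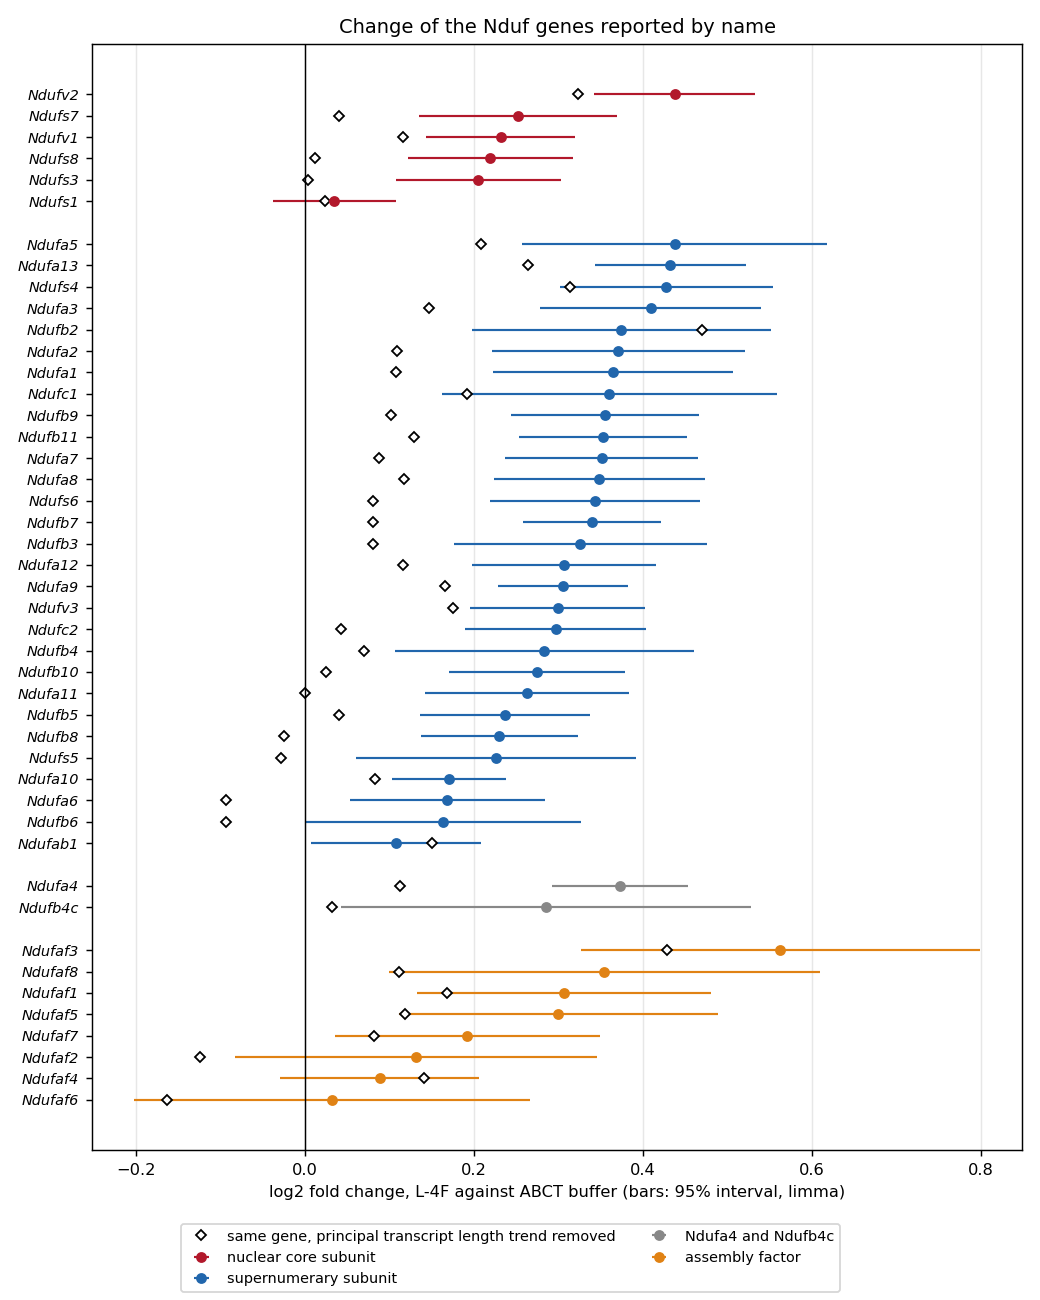
Log2 fold change of L-4F over buffer for the tested complex I genes reported by name, with 95% limma intervals, grouped as nuclear core subunits, supernumerary subunits, Ndufa4 with Ndufb4c, and assembly factors. Open diamonds give the same gene with the trend in principal transcript length removed. The filled points of the structural subunits lie between 0.04 and 0.44 and those of the assembly factors between 0.03 and 0.56, and the interval of Ndufs1 and of 3 assembly factors takes in 0.

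Promoter sequence is shown for 5 of the genes, chosen with their values known: Ndufv2 rose most of the core subunits, Ndufs6 and Ndufb4 are supernumerary subunits with letters of the NRF1 motif, and Ndufaf3 and Ndufaf4 are partner assembly factors of which the first rose and the second was not called. NRF1 is a transcription factor known for binding promoters of respiratory chain genes, and Sp1 is a general GC-box factor. Each line holds the 250 bases before the RefSeq start (GRCm38.p6), 5′ to 3′ on the gene's strand, with capitals for letters matching NRF1 (GCGCA, any base, GCGC) or Sp1 (GGGCGG), searched on both strands. The windows are chr17:66101560-66101809 on the minus strand, chr13:73328483-73328732 on the minus strand, chr16:37654369-37654618 on the minus strand, chr9:108567437-108567686 on the minus strand and chr4:24897833-24898082 on the plus strand, in this order.
Ndufv2: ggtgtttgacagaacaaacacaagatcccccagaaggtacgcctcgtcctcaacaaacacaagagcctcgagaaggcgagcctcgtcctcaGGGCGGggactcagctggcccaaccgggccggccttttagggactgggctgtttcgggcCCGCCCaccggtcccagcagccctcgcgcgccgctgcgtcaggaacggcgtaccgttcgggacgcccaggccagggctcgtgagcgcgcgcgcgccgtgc
Ndufs6: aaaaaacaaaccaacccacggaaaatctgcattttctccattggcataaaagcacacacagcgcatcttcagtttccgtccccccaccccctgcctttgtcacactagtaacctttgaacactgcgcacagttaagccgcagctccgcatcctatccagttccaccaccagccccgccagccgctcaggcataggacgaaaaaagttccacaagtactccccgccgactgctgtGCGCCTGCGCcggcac
Ndufb4: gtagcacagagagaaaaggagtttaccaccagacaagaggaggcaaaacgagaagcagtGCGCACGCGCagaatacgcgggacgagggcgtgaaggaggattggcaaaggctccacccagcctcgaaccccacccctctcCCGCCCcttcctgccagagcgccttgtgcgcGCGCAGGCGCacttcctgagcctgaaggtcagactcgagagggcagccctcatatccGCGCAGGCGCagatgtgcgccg
Ndufaf3: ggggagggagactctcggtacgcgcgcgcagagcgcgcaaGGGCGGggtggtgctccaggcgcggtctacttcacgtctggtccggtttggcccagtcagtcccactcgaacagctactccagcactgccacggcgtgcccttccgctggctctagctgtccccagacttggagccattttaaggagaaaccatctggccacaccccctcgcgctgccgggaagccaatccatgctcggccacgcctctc
Ndufaf4: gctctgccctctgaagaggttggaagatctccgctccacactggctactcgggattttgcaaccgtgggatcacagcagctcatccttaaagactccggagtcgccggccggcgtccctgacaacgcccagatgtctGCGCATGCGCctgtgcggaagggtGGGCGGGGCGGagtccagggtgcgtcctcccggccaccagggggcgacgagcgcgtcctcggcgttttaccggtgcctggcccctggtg
In the Ndufaf4 window the 2 Sp1 matches overlap each other. Ndufb4 holds 3 NRF1 matches, Ndufs6 and Ndufaf4 hold 1 each, and Ndufv2 and Ndufaf3, the core subunit and the assembly factor with the highest log2 fold changes, hold none in this window. Of the genes whose sequence is not printed, Ndufa5 (0.44, the highest of the structural subunits), Ndufa8 (0.35), Ndufa11 (0.26) and Ndufs5 (0.23) also hold NRF1 letters. A match is a description of the letters, and binding was not measured.

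The N module oxidises NADH. Ndufv2, a core subunit that carries an iron-sulphur cluster (chr17:66078638-66101559 on GRCm38), was at 1723, 1639 and 1566 normalized reads in the buffer libraries and 2117, 2243 and 2315 in the L-4F libraries. Every L-4F library lay above every buffer library, and the log2 fold change was 0.44 (SE 0.0456, limma adjusted p = 1.05e-07), a level 1.35 times as high. Ndufv1, which binds NADH and the flavin, was at 2139, 2232 and 2331 normalized reads in the buffer libraries and 2773, 2538 and 2562 in the L-4F libraries. Its groups did not overlap either, with a smaller log2 fold change of 0.23 (SE 0.0424, limma adjusted p = 0.000144). Ndufs1, the largest core subunit and the carrier of several iron-sulphur clusters, was at 2743, 2894 and 2849 normalized reads in the buffer libraries and 2924, 2837 and 2933 in the L-4F libraries. These values overlapped between the groups, and the log2 fold change was 0.04 (SE 0.0351, limma adjusted p = 0.467), with an interval of -0.04 to 0.11. Its value turned on the length measure: with the trend in summed exon length removed, Ndufs1 was called higher, at 0.17 (adjusted p = 0.00096). With the longest transcript it was at -0.01 (adjusted p = 0.85) and with the principal transcript at 0.02 (adjusted p = 0.69), not called in either. Before any trend was removed, the interval of Ndufv2, 0.34 to 0.53, lay apart from that of Ndufs1.

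The Q module passes electrons to ubiquinone, and its core subunits Ndufs7, Ndufs8 and Ndufs3 were called higher, by 0.21 to 0.25. Ndufs7, the carrier of the last iron-sulphur cluster of the chain, was at 904, 816 and 862 normalized reads in the buffer libraries and 1040.0, 1026 and 1008 in the L-4F libraries, a log2 fold change of 0.25 (SE 0.0565, limma adjusted p = 0.00109). Ndufs8, which holds further iron-sulphur clusters, was at 1269, 1294 and 1333 normalized reads in the buffer libraries and 1462, 1556 and 1521 in the L-4F libraries, and its log2 fold change was 0.22 (SE 0.0468, limma adjusted p = 0.000693). Ndufs3, an early-assembled scaffold of the module, was at 1576, 1639 and 1499 normalized reads in the buffer libraries and 1902, 1776 and 1757 in the L-4F libraries, and differed by 0.21 (SE 0.0468, limma adjusted p = 0.00128). In all 3 genes every L-4F library was above every buffer library. The median over all 7 nuclear core subunits was 0.22.

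**Figure D2:**
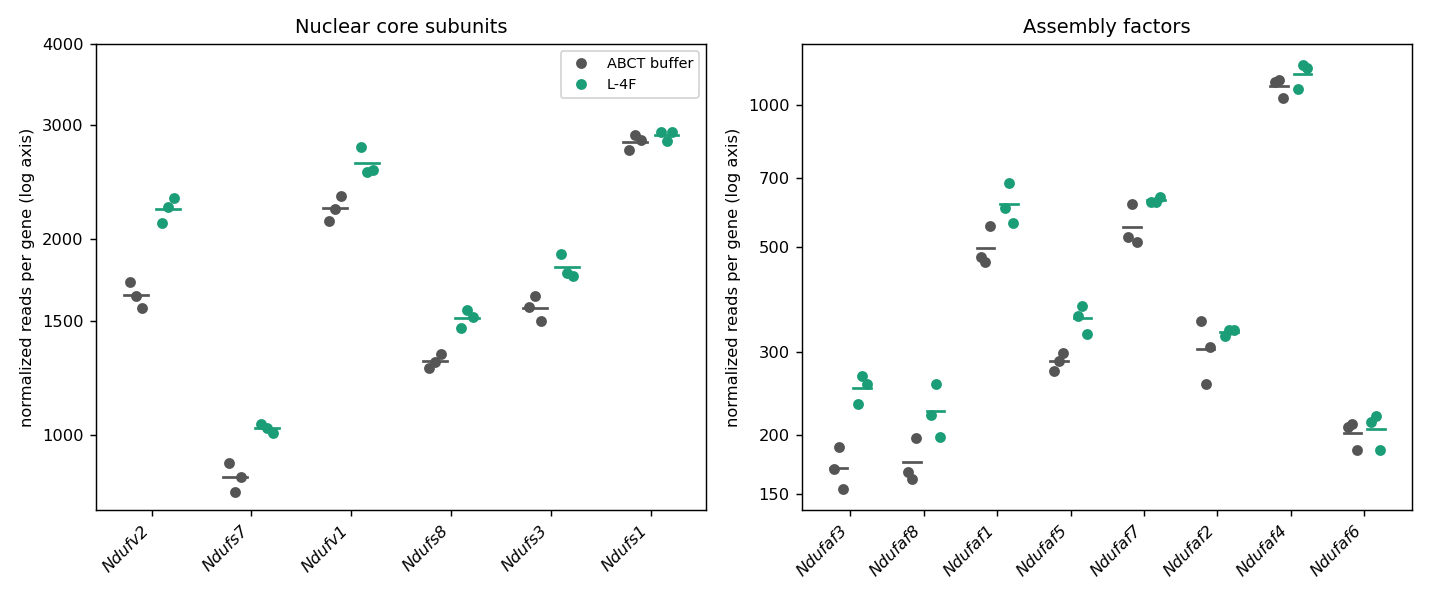
Normalized reads (log axis) of the nuclear core subunits reported by name, left, and the assembly factors, right, with 1 point per library and a bar at the mean of each group. The L-4F points of Ndufv2 and Ndufaf3 stand above all buffer points, and those of Ndufs1 and Ndufaf6 overlap in range with the buffer points.

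Supernumerary subunits were nearly all called higher: 27 of 29 tested were called higher, their median log2 fold change being 0.33 (range 0.11 to 0.44). By place in the complex, 6 of 6 in the N module (median 0.35), 3 of 4 in the Q module (0.24), 9 of 9 in the proximal membrane arm (0.35) and 9 of 10 in the distal membrane arm (0.30) were called. Ndufa5, a Q-module subunit, had the highest log2 fold change of the 29, 0.44 (SE 0.0861, limma adjusted p = 0.000392), from 559.6, 533 and 449 in buffer and 643, 773 and 670.0 with L-4F. Ndufa13, also known as GRIM-19 and part of the membrane arm next to the Q module, was at 1468, 1398 and 1449 in buffer and 1954, 1900.5 and 1970.4 with L-4F, a log2 fold change of 0.43 (SE 0.0427, limma adjusted p = 4.5e-08). Ndufs4, an N-module subunit whose loss in mice gives a Leigh-like disease, was at 839.8, 985 and 881 in buffer and 1270.3, 1174 and 1190.2 with L-4F, and differed by 0.43 (SE 0.0607, limma adjusted p = 7.23e-06). The next were Ndufa3, a small membrane subunit, at 0.41 (SE 0.063, limma adjusted p = 1.98e-05), Ndufb2 of the distal arm at 0.37 (SE 0.0848, limma adjusted p = 0.00122), and Ndufa2, an N-module subunit with a thioredoxin-like fold, at 0.37 (SE 0.0717, limma adjusted p = 0.000259). Ndufa3 was at 783, 840.5 and 719.7 in buffer and 993, 1083 and 1033 with L-4F. Ndufb2 was at 389, 402 and 345 in buffer and 458, 532 and 484 with L-4F. Ndufa2 was at 523, 607 and 523 in buffer and 735, 691 and 707 with L-4F. In each of these 6 genes the groups were separate. Part of the exons of Ndufa13 (29.98%) lies opposite exons of Tssk6, which was below the filter, and whether counting used strand is not stated.

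The lowest of the 29 began with Ndufab1, the mitochondrial acyl carrier protein, which also serves fatty acid synthesis outside complex I. It was at 1315, 1430.1 and 1349.7 normalized reads in the buffer libraries and 1509, 1486 and 1416 in the L-4F libraries, with overlapping groups and a log2 fold change of 0.11 (SE 0.0485, limma adjusted p = 0.0868). It was called higher with the trend in principal transcript length (0.15, adjusted p = 0.0248) or summed exon length (0.21, adjusted p = 0.0025) removed. Ndufb6, a membrane subunit of the distal arm, was at 598, 654 and 681 normalized reads in the buffer libraries and 747, 792 and 633 in the L-4F libraries. These groups overlapped as well, and the log2 fold change was 0.16 (SE 0.0785, limma adjusted p = 0.11), with an interval of 0.00 to 0.33. Without L-4F library 3 it was 0.26 and passed the test, at an adjusted p of 0.0108. Its lowest value with 1 library left out was 0.10. With the trend in longest transcript, summed exon or principal transcript length removed it was at -0.09, -0.05 and -0.09, and was not called. Ndufa6, which docks an acyl carrier protein onto the Q module, was at 945, 959 and 916 in buffer and 1081, 997 and 1093 with L-4F, a log2 fold change of 0.17 (SE 0.0554, limma adjusted p = 0.0195), and Ndufa10 of the proximal arm was at 3011, 2998 and 3082 in buffer and 3467, 3369.8 and 3394 with L-4F, a log2 fold change of 0.17 (SE 0.0325, limma adjusted p = 0.000228). The last pair had separate groups, though the call of Ndufa6 was lost under median centring (adjusted p = 0.0771) and on leaving out L-4F library 1 (0.0655) or 3 (0.0781) or the buffer library numbered 3 (0.0759). Exons of Ndufb6 lie opposite those of Smim27 over 39.0% of their length, so that its reads are less certain where strand was not used.

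The remaining 19 supernumerary subunits were all called higher, at log2 fold changes of 0.23 to 0.36. In the N module these were Ndufa7 (0.35), the zinc-binding Ndufs6 (0.34), Ndufa12 (0.31) and Ndufv3 (0.30), and in the Q module Ndufa9 (0.31), which binds NADPH. In the proximal membrane arm they ran from Ndufa1 and Ndufc1 (0.36 each) through Ndufa8 (0.35), Ndufc2 (0.30) and Ndufa11 (0.26) to Ndufs5 (0.23). In the distal arm they were Ndufb9 (0.36), Ndufb11 (0.35), Ndufb7 (0.34), Ndufb3 (0.33), Ndufb4 (0.28), Ndufb10 (0.27), Ndufb5 (0.24) and Ndufb8 (0.23). Subunits on the intermembrane side that are held by disulphide bonds (Ndufa8, Ndufs5, Ndufb7 and Ndufb10) were thus spread over most of that range. Ndufs5 was the 1 called structural subunit whose groups overlapped, at 561, 498 and 530.0 in buffer and 683, 629.9 and 552 with L-4F, with a log2 fold change of 0.23 (SE 0.0796, limma adjusted p = 0.0285). Its call was lost on leaving out L-4F library 1 (adjusted p = 0.165) or 2 (0.0644) or the buffer libraries numbered 2 (0.131) or 3 (0.0602). The call was also lost under quantile normalization (0.0678) and median centring (0.0710), with no filter (0.0702) and without the trended robust spread (0.131). The symbol rule also took 4 genes that are not listed as complex I subunits here. Ndufa4, which is now known as a subunit of complex IV, cytochrome c oxidase, was at 1903, 1969.6 and 2019.9 in buffer and 2588, 2502 and 2542 with L-4F, and rose by a log2 fold change of 0.37 (SE 0.0385, limma adjusted p = 8.79e-08). Ndufb4c, a gene with 1 exon that GENCODE types as a processed pseudogene although its symbol does not say so, was at 176, 152 and 166 in buffer and 198, 217 and 188 with L-4F, with separate groups but a difference short of the threshold, 0.29 (SE 0.117, limma adjusted p = 0.0589). It passed with the filter at 100 normalized reads (adjusted p = 0.0471) and without the trended robust spread (0.0499). Without Ndufa4 and Ndufb4c, 33 of 36 structural subunits were called higher. Reads from near-identical stretches of Ndufb4 and Ndufb4c could have been split between them. The other two were Ndufa4l2 and Ndufs6b, given above as below the filter. The row named Ndufb1-ps, left out by the rule, is described in the deposited table as subunit B1, and RefSeq lists Ndufb1 as protein coding. GENCODE types that row as a long noncoding RNA of a bidirectional promoter. Its log2 fold change was 0.29 (limma adjusted p = 0.0038). With the trend in longest transcript, summed exon or principal transcript length removed it was at 0.06, 0.09 and 0.06, and was not called.

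Assembly factors of complex I ranged from no detectable difference to the highest log2 fold change of all 46 genes. Ndufaf3, which acts with Ndufaf4 in building the Q module, was at 169, 189 and 154 normalized reads in the buffer libraries and 232, 266 and 257 in the L-4F libraries. The groups were separate, and the log2 fold change was 0.56 (SE 0.114, limma adjusted p = 0.000402), a level 1.48 times as high with an interval of 0.33 to 0.80. Its partner Ndufaf4 was at 1118, 1132 and 1036 normalized reads in the buffer libraries and 1083, 1214 and 1199.5 in the L-4F libraries. Here the groups overlapped, at a log2 fold change of 0.09 (SE 0.0567, limma adjusted p = 0.238) with an interval of -0.03 to 0.21, which lies below that of Ndufaf3. With the trend in GC content removed from each library, Ndufaf4 passed the test at 0.14 (adjusted p = 0.0391).

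Ndufaf5, which hydroxylates an arginine of Ndufs7, was at 273, 287 and 299 normalized reads in the buffer libraries and 357, 375 and 328 in the L-4F libraries, a log2 fold change of 0.30 (SE 0.0909, limma adjusted p = 0.0118). Ndufaf8, its binding partner, was at 167, 161 and 197 normalized reads in the buffer libraries and 220.2, 256 and 198 in the L-4F libraries, and differed by 0.35 (SE 0.123, limma adjusted p = 0.0264). Both had separate groups, and both calls depended on single libraries. Ndufaf5 was lost on leaving out buffer library 1 (adjusted p = 0.0546), and likewise L-4F library 2 (0.0552). Ndufaf8 was lost without buffer library 1 (0.0878) or 2 (0.11), or L-4F library 1 (0.0504) or 2 (0.143). Ndufaf7, a mitochondrial arginine methyltransferase, was at 525, 618 and 511 normalized reads in the buffer libraries and 622, 623 and 639.8 in the L-4F libraries. Its L-4F values lay barely above the highest buffer value, and its log2 fold change was 0.19 (SE 0.0753, limma adjusted p = 0.0486). This call was lost with the replicate number as a block (adjusted p = 0.0576) and when any library but buffer library 2 was left out. It was also lost under median centring (0.118), quantile normalization (0.102) and total-read scaling (0.0729), with no filter (0.0988) and without the trended robust spread (0.134).

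Ndufaf1 belongs to the complex that assembles part of the membrane arm, together with Ecsit, Acad9 and Tmem126b. It was at 476, 465 and 555 normalized reads in the buffer libraries and 606, 684 and 562 in the L-4F libraries, a log2 fold change of 0.31 (SE 0.0837, limma adjusted p = 0.00563) with separate groups. Ndufaf2, a paralog of Ndufa12 that acts late, when the N module is added, was at 349, 257 and 307 normalized reads in the buffer libraries and 325, 334 and 334 in the L-4F libraries. Its groups overlapped, with a log2 fold change of 0.13 (SE 0.103, limma adjusted p = 0.344) and an interval of -0.08 to 0.35. Most of its exon length (65.7%) lies opposite exons of another gene. Ndufaf6, which acts in assembly of the Q module, was at 208, 211 and 186 normalized reads in the buffer libraries and 214, 219.6 and 186 in the L-4F libraries, also overlapping, at 0.03 (SE 0.113, limma adjusted p = 0.85) with an interval of -0.20 to 0.27. With the length trends removed it was at -0.17 to -0.16 and was not called. The count of assembly factors called higher turned on the setting: 3 with no filter on low values (9.91% of all genes), 2 without the trended robust spread (13.8%), 4 with the replicate number as a block (17.8%) and 3 with that block and the GC trend removed (18.1%). Leaving out buffer library 1, 2 or 3 gave 2, 4 and 4 assembly factors beside 34, 33 and 32 structural subunits, with 15.8, 15.9 and 16.2% of all genes called higher. Leaving out L-4F library 1, 2 or 3 gave 3, 2 and 4 beside 31, 33 and 34, with 16.6, 17.0 and 17.1% of all genes. At these depths the assembly factors were measured less precisely than the subunits, with a median SE of 0.097 against 0.053 and a median buffer level of 295 against 1123 normalized reads.

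Levels differed between the classes when set on transcript length. Per kilobase of principal transcript, the structural subunits tested held 86.6 to 3220 normalized reads in buffer, with a median of 1292, and the assembly factors 115 to 449, with a median of 274. With L-4F the medians were 1583 and 312. Ndufa4 (3220), Ndufb7 (2790) and Ndufb10 (2258) were the highest in buffer per kilobase, and Ndufb2, whose annotated principal transcript of 4371 bases is unusually long for so small a protein, was the lowest of all (86.6). Summed over genes, structural subunits took 0.172, 0.173 and 0.171% of gene reads in the buffer libraries and 0.206, 0.204 and 0.205% in the L-4F libraries. The 3 L-4F shares were all above the 3 buffer shares. Assembly factors took 0.0119, 0.0120 and 0.0118% in buffer and 0.0131, 0.0142 and 0.0134% with L-4F, also without overlap. Reads of structural subunits per read of an assembly factor were 14.4, 14.3 and 14.5 in buffer and 15.7, 14.4 and 15.4 with L-4F, where L-4F library 2 lay within the buffer range and the other two above it.

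**Figure D3:**
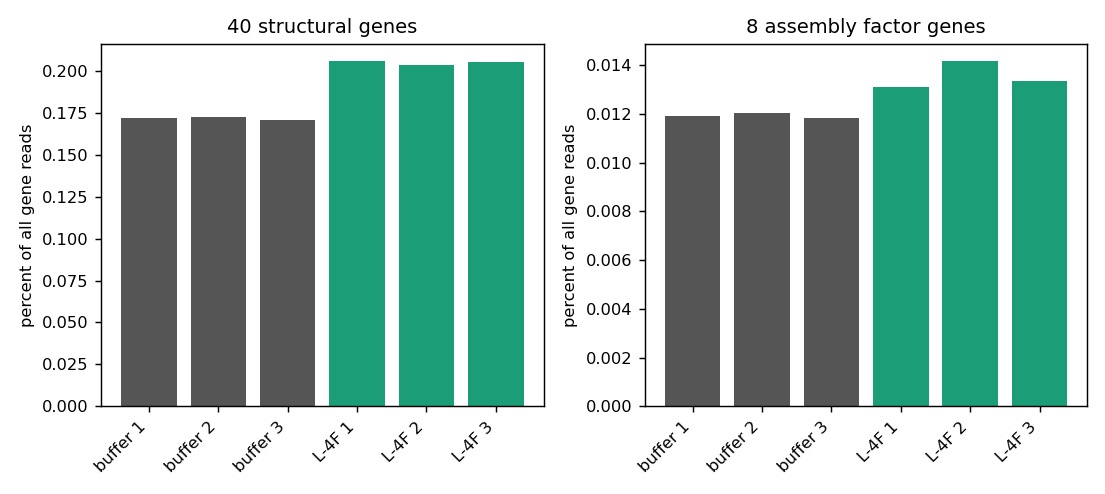
Share of gene reads taken by the structural subunits and by the assembly factors in each library, in percent, with 1 bar per library and an axis for each class. The 3 L-4F libraries lie above the 3 buffer libraries in both classes.

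Complex I subunits are mostly small proteins with short transcripts, and short transcripts as a whole were higher with L-4F in these libraries. With all genes in 10 bins of principal transcript length, the median log2 fold change was 0.21 in the shortest bin (up to 765 bases) and -0.28 in the longest. The 18 complex I genes in the shortest bin had a median of 0.31, the 14 in the next bin (all genes 0.21) a median of 0.30, and the 8 in the one after it (all genes 0.14) a median of 0.31. Across genes, which are not independent replicates, the rank correlation of log2 fold change with longest transcript length was -0.45 over 14910 genes and -0.26 over the 46 complex I genes. The structural subunits had a median longest transcript of 1026 bases and the assembly factors one of 1483.

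**Figure D4:**
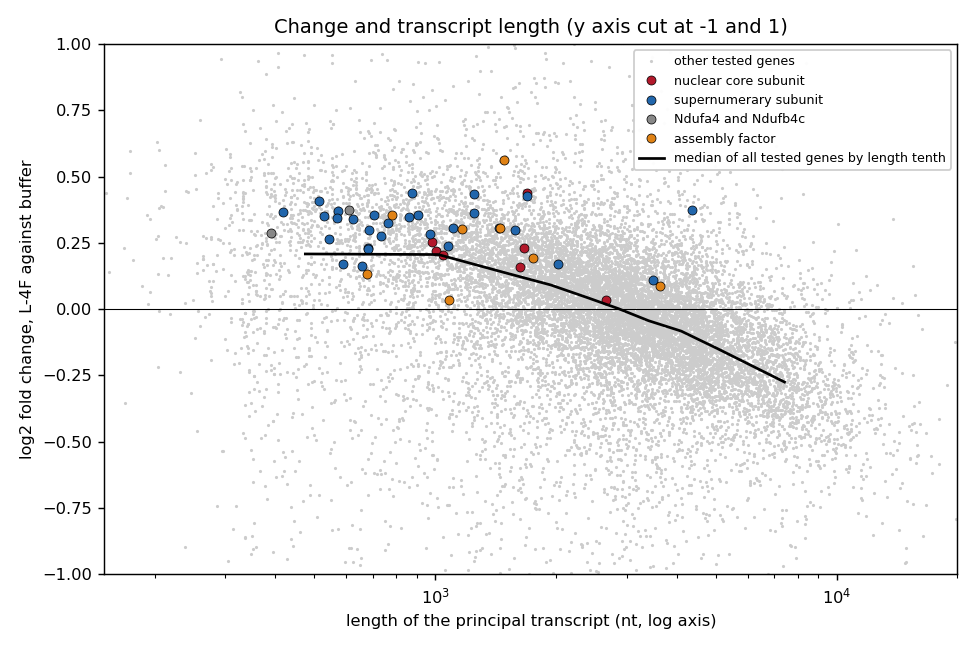
Log2 fold change of L-4F over buffer against the length of the principal transcript (log axis) for the tested complex I genes (coloured) and all other tested genes (grey), with a line through the median of each of 10 length bins; the y axis leaves out genes beyond 1 in either direction. Most complex I genes lie above the line of medians, which falls from 0.21 in the shortest bin to -0.28 in the longest.

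With the length trend removed from each library, fewer complex I genes were called. Using the longest transcript, 11 of 38 structural subunits and 1 of 8 assembly factors were called higher, with medians of 0.11 and 0.11, beside 13.1% of all genes called higher. Using summed exon length the counts were 19 and 1 (medians 0.15 and 0.12, 14.8% of all genes), and using the principal transcript they were 10 and 1 (0.09 and 0.12, 12.8% of all genes). With the replicate number as a block as well, the longest transcript gave 11 and 1 (12.5% of all genes), exon length 19 and 1 (14.3%) and the principal transcript 7 and 1 (12.2%). The assembly factor was Ndufaf3 each time. The genes called under all 3 length measures were Ndufv2, Ndufs4, Ndufv3, Ndufa9, Ndufa13, Ndufb2, Ndufa4 and Ndufaf3, and each but Ndufa4 was also called with the block added to each of the 3. All 3 measures together called 7.60% of all genes higher. Ndufv2 kept a log2 fold change of 0.30 with the longest and 0.32 with the principal transcript, and Ndufaf3 kept 0.41 and 0.43. Of the Q-module core subunits Ndufs3, Ndufs7 and Ndufs8 none was called under the 3 measures, with log2 fold changes of -0.00 to 0.08. Values of single genes turn on which transcript stands for the gene: Ndufb7 differed by 0.41 with its longest transcript of 4435 bases and by 0.08 with its principal transcript of 623. Which length the sequenced molecules had was not measured.

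Promoter windows were found in RefSeq for 40 of the 48 genes. Letters of the NRF1 motif stood in 18.2% of the windows of 33 structural subunits and in 14.3% of those of 7 assembly factors, against 9.34% of 10131 tested genes and 4.23% of 27025 genes with a window. ETS-factor letters (CCGGAAG) stood in 9.09% and 28.6% of the same windows against 16.01% of tested genes, and Sp1 letters in 42.4% and 71.4% against 62.4%. The YY1 letters AAGATGGC were in none of the 40 (2.52% of tested genes). Bases after the start were not searched for any of these motifs. Ndufs6 and Ndufb4, whose windows with NRF1 letters are printed above, had log2 fold changes of 0.34 (adjusted p = 8.5e-05) and 0.28 (adjusted p = 0.011). The call of Ndufb4 was lost without L-4F library 1 (adjusted p = 0.0557).

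Some complex I genes start head to head with another gene, and how common this is among all genes was not counted. Within 1000 bases, 17 complex I genes faced a protein-coding gene on the opposite strand that was itself tested. Some of these pairs share exon bases, from 9 (Ndufs1 and Eef1b2) to 616 (Ndufb5 and Mrpl47), and whether counting used strand is not stated. These 17 neighbours had a median log2 fold change of 0.10, with 7 called higher and 1 lower (18.4% and 19.7% of all genes), while the complex I genes beside them had a median of 0.33. With the principal transcript length trend removed, 4 of the 17 were called higher and 1 lower. Under that setting 12.8% of all genes were called higher and 1907 of 14910 lower. Ndufs1, at 0.04, starts beside Eef1b2, an elongation factor subunit that rose by 0.41. Ndufb3, at 0.33, faces Fam126b, which fell by 0.53 on the log2 scale (-0.23 with that trend removed). Ndufa7 and the ribosomal protein gene Rps28 were at 0.35 and 0.36, and Ndufs6 and Mrpl36, a mitochondrial ribosomal protein gene, at 0.34 and 0.33. With the trend removed these were 0.09 and 0.10, and 0.08 and 0.11, and of the 4 genes Rps28 alone was called (adjusted p = 0.0200).

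The core subunits encoded by mitochondrial DNA were divided in direction. Of these 7 genes, 2 were called higher, mt-Nd3 at 0.34 (adjusted p = 3.07e-07) and mt-Nd1 at 0.10 (adjusted p = 1.96e-05), and 3 lower, mt-Nd4l at -0.54 (adjusted p = 2.32e-12), mt-Nd5 at -0.52 (adjusted p = 2.34e-15) and mt-Nd2 at -0.07 (adjusted p = 0.00267), all by limma. They are the membrane-arm subunits that hold the proton channels and part of the ubiquinone site. Under quantile normalization and all 3 length measures mt-Nd1 was called lower instead (-0.08 to -0.12). Without the trended robust spread the calls of mt-Nd1 (adjusted p = 0.0628) and mt-Nd2 (0.152) were lost, and mt-Nd2 was also lost with the GC trend removed (-0.02, adjusted p = 0.458). The call of mt-Nd3 was lost with the longest or the principal transcript, and with the principal transcript length removed 0 of the 7 were called higher and 6 lower. Of all genes, 12.8% were called higher and 1907 of 14910 lower under that last setting. The genes mt-Nd4l and mt-Nd4 overlap and share a transcript, and mt-Nd6 lies on the other strand beside mt-Nd5, so that single values are uncertain. Against -0.54 for mt-Nd4l, mt-Nd4 was at -0.02 (adjusted p = 0.324) with overlapping groups, and is named for that shared transcript. The value of mt-Nd6 was 0.02 (adjusted p = 0.799). Both mt-Nd4 and mt-Nd6 were called lower under all 3 length measures, and mt-Nd4 also under median centring and quantile normalization.

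Assembly factors with other names were a mixed set: 4 of 10 were called higher and 0 lower, with a median of 0.11. The count was 2 under each of the 3 length measures (12.8 to 14.8% of all genes called higher). It was also 2 without the trended robust spread (13.8%). Timmdc1, one of the 4 at 0.19 (adjusted p = 0.0463), was lost with the replicate block (adjusted p = 0.0512), under each other scaling, and on leaving out buffer library 2 or 3 or L-4F library 1 or 2. The highest were Nubpl, which delivers iron-sulphur clusters, at 0.50 (adjusted p = 0.00709), Dmac1, which acts on the distal membrane arm, at 0.35 (adjusted p = 0.000736), and Tmem126b, a partner of Ndufaf1, at 0.28 (adjusted p = 0.0052). The lowest were Acad9, another partner of Ndufaf1, at -0.03 (adjusted p = 0.734), Tmem186 at -0.01 (adjusted p = 0.927) and Dmac2 at 0.02 (adjusted p = 0.86). Complex II, succinate dehydrogenase with its assembly factors, had 5 of 8 called higher and 0 lower, at a median of 0.18. The count was 3 without buffer library 2 or 3 or L-4F library 2, with no filter and without the trended robust spread, and 2, 3 and 2 with the longest transcript, summed exon and principal transcript length removed (1 for the principal transcript with the replicate block). Of all genes, 15.9, 16.2, 17.0, 9.91 and 13.8% were called higher in the first 5 of these fits. With the 3 lengths removed 13.1, 14.8 and 12.8% were, and 12.2% for the principal transcript with the block. Sdhaf2, one of the 5 at 0.13 (adjusted p = 0.0391), was lost under median centring and in 5 of the 6 fits with 1 library left out (L-4F library 3 was the exception). The highest were Sdhaf4 at 0.54 (adjusted p = 0.0195), Sdhb at 0.27 (adjusted p = 1.26e-05) and Sdhd at 0.26 (adjusted p = 7.85e-06), and its flavin-bearing subunit Sdha was at 0.03 (adjusted p = 0.343). The calls of Sdhaf4, Sdhd and Dmac1 were lost under all 3 length measures and that of Sdhb with the longest or the principal transcript, and Sdhaf4 was also lost without buffer library 2 or 3 or L-4F library 2 or 3 (adjusted p = 0.0544 to 0.142).

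Other genes on routes that feed ubiquinone without complex I had 3 of 7 called higher and 1 lower. Sqor, which oxidises sulphide, was at 0.85 (adjusted p = 0.00146), the electron transfer flavoprotein subunits Etfb and Etfa were at 0.35 (adjusted p = 6.74e-06) and 0.21 (adjusted p = 0.00191), and Gpd2 of the glycerol phosphate shuttle was at -0.40 (adjusted p = 5.8e-07). Etfa was lost under all 3 length measures and Etfb with the longest or the principal transcript. Etfdh, the dehydrogenase that passes electrons from this flavoprotein to ubiquinone, was not called, at 0.03 (adjusted p = 0.607). With the trend in summed exon length removed Etfdh was called higher (0.15, adjusted p = 0.0164). Of 9 nuclear regulators of respiratory genes, 1 was called higher, Tfam, the packaging and transcription factor of mitochondrial DNA, at 0.19 (adjusted p = 0.00111), and 4 lower. Those called lower were Ppargc1b at -0.65 (adjusted p = 1.34e-05) and Pprc1 at -0.30 (adjusted p = 1.9e-07), both coactivators of mitochondrial genes, Gabpa, an ETS factor, at -0.21 (adjusted p = 9.23e-05), and Yy1 at -0.11 (adjusted p = 0.00683). The call of Gabpa was lost with the longest or the principal transcript length removed (adjusted p = 0.051 and 0.142), and that of Yy1 under quantile normalization and all 3 length measures. Yy1 turned in sign with the longest (0.07) and the principal transcript (0.08, adjusted p = 0.0541). Gabpa and Yy1 are named because they make up that count, chosen with their values known, as was Nrf1 below. Nrf1, the factor of the motif above, was at -0.09 (adjusted p = 0.106) and its value moved with the setting. It was called lower under median centring (-0.13, adjusted p = 0.0226), without L-4F library 1 (-0.12, adjusted p = 0.043) and with the principal transcript length removed (-0.19, adjusted p = 0.0020), was at -0.05 (adjusted p = 0.470) with the longest transcript and turned to 0.09 (adjusted p = 0.142) with summed exon length. With no setting changed, the counts of these lists are read against 18.4% of all genes called higher and 19.7% lower.

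**Figure D5:**
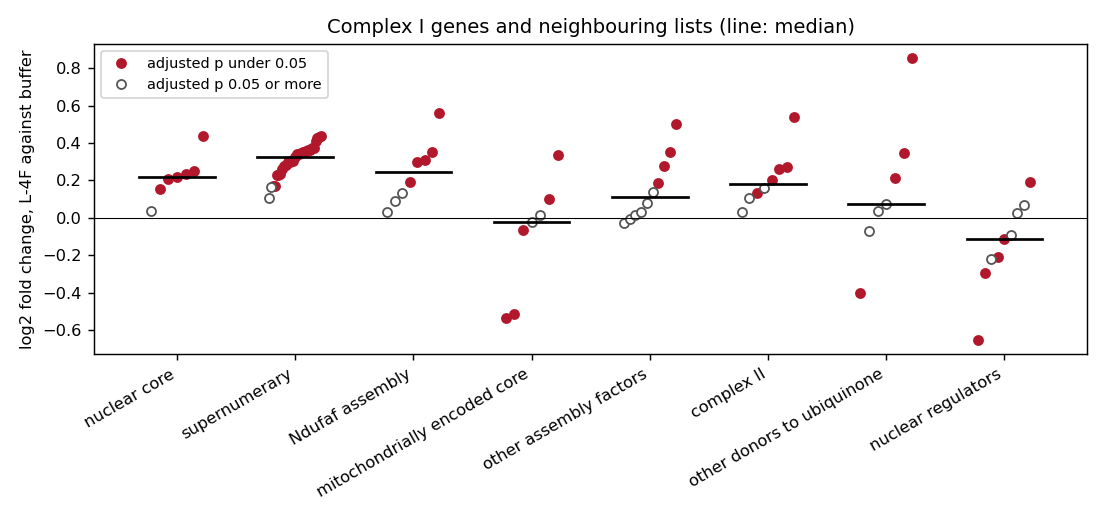
Log2 fold change of L-4F over buffer for each tested gene of the complex I groups, the subunits encoded by mitochondrial DNA, the other assembly factors, complex II, other donors to ubiquinone and regulators, with the median of each list as a line. Filled points were called at an adjusted p under 0.05. The nuclear core and supernumerary subunits, the Ndufaf genes and complex II lie above 0, and the other lists have genes on both sides.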

How the data were processed

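RNA sequencing covered 3 L-4F and 3 ABCT buffer libraries, grouped by their titles. Strand-specific Illumina TruSeq libraries were made from total RNA, per the labels' protocols. StringTie 1.3.1c and FastQC (0.11.2, 0.11.5) appear in the submitters' processing notes with no role stated. For the aligner, annotation and genome build, no name is given in the sources used here.

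The log2 values, as deposited, were made by the authors. The values themselves show the form log2(reads / library factor + 1): solved for reads, 100% of genes came out whole (tolerance 0.01 read) in every library. The authors' deposited fold change, p-value and FDR were used for comparison only. Because the table holds log2 values, limma 3.58.1 was run under R 4.3.3 (trended, robust spread through statmod 1.5.0, group as the only term) on 14922 genes with at least 10 normalized reads in at least 3 libraries. Every p is from limma, Benjamini-Hochberg adjusted over the genes tested in its own fit. Other fits tested 14910 genes with a length or GC trend removed, 10947 with the filter at 100 normalized reads and 24559 with no filter. The pseudocount of 1 makes differences of low genes look smaller.

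The genes, lists and settings were chosen with earlier results of these data known. Named in full were the nuclear core subunits (values of 1 are not reported here), the 8 assembly factors, and the 6 highest and 4 lowest supernumerary subunits, and from other lists up to the 3 highest and 3 lowest. Coordinates and lengths came from GENCODE M21 (GRCm38), matched on the Ensembl identifier, which may not be the authors' annotation. Length and GC trends (robust loess, span 0.3) were removed from each library over 14910 genes. The principal transcript as a length, the trend fits with the replicate block and the subunits without Ndufa4 and Ndufb4c were added after the data were seen. Promoters were matched by symbol to RefSeq. No window was used for Ndufa2, Ndufa4l2, Ndufaf6, Ndufb4c, Ndufb9, Ndufs1 and Ndufs6b.

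Libraries of a group differed from each other by more than sampling noise (median chi-square ratio 2.19 to 2.72, and 7.71 to 8.85 between groups), so none was counted as a repeat. The titles number the libraries 1 to 3 in each group, without saying what a number shares. Over 10859 genes, deviations from the group means correlated at 0.168, 0.142 and 0.410 between libraries of the same number, so the number was also fitted as a block. Libraries 1 and 2 correlated across numbers about as much (0.165 and 0.129). The procedure was also run on simulated data with known changes. The spread between simulated libraries was set to a fixed value, and no result above rests on that run.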

Additional observations from a re-analysis of the deposited data

How the results depend on the processing

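The 39 calls among the complex I genes rest on 3 libraries a group and differences mostly under 0.45 on the log2 scale, and the low levels of the assembly factors limit the precision of single genes. Under limma-voom on the recovered reads and a pseudocount of 0.1 all 46 genes kept their direction and call. The replicate block (pairing by number) changed 1 call among the 46, that of Ndufaf7 (adjusted p = 0.0576), and moved no count by over 1.5 times. The median of the structural subunits was 0.262 under median centring and 0.285 under total-read scaling. Assembly factors called higher fell to 3 with no filter, to 2 without the trended robust spread and to 3 with the GC trend removed and the replicate block. Leaving out 1 library at a time gave 31 to 34 structural subunits and 2 to 4 assembly factors called higher, with medians of 0.285 to 0.322 and 0.215 to 0.268, and 2357 to 2556 genes higher and 2459 to 2823 lower over all. Assembly factors fell to 2 without buffer library 1 or L-4F library 2 and to 3 without L-4F library 1. Removing the trend in longest transcript length gave 11 structural subunits (median 0.112), 1 assembly factor (0.113) and 1948 genes lower over all, and with the replicate block 11 (0.112), 1 (0.113) and 1857. Summed exon length gave 19 (0.147) and 1 (0.124), with and without the replicate block. The principal transcript gave 10 (0.0857), 1 (0.115) and 1907 genes lower, and with the replicate block 7 (0.0857), 1 (0.115) and 1815 genes in each direction. The called genes that turned in sign, none past the threshold, were Ndufs3 (-0.0028), Ndufa6 (-0.026) and Ndufs5 (-0.022) with the longest transcript, Ndufa6 (-0.0020) with summed exon length, and Ndufa11 (-0.00012), Ndufa6 (-0.093), Ndufb8 (-0.025) and Ndufs5 (-0.028) with the principal transcript, each with and without the replicate block. The share of these changes that comes from the length of the RNA sequenced was not tested.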
